A study of Mus musculus with 4 samples.

Results

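Rab proteins are small GTPases that mark membranes inside the cell. A Rab bound to GTP recruits effector proteins that tether, move or fuse vesicles, guanine nucleotide exchange factors (GEFs) switch it on, and GTPase-activating proteins (GAPs) switch it off. In T cells, Rab proteins of early and recycling endosomes carry antigen receptors and other surface proteins, and Rab27a is needed to release cytotoxic granules. Rab38 and its closest relative Rab32 direct enzymes to lysosome-related organelles, best known from the melanosomes of pigment cells, and mice with a mutated Rab38 have a brown coat (the chocolate mutation).

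The Rab genes described here are the 57 entries, of 23285 genes in the deposited table, whose symbol is Rab followed by a number and at most a letter and a further digit. RNA was sequenced from thymocytes sorted at the DN3 stage, the CD4-negative and CD8-negative stage at which T cell precursors rearrange T cell receptor beta genes. Fetal liver cells of donors labelled Gata3(g/g), called a hypomorph, or wild type (WT) had been transferred into irradiated recipient mice, and the thymocytes were collected 16 weeks later. All samples are labelled C57BL/6, and no label used here says whether host cells that survived irradiation were removed. Each genotype had 2 libraries. Replicates 1 of both genotypes carry the same sequencing run number (called run 1) and replicates 2 another (called run 2), so genotypes were compared within runs. No label says that replicates are separate animals, and p-values therefore measure the spread between these samples only, which may be technical.

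Fragments assigned to genes numbered 14331705 to 26901913 per library. Gata3, the gene named by the genotype, stood at 120 and 96.1 FPKM (fragments per kilobase of transcript, scaled to library size) in libraries with the Gata3(g/g) label, against 62.4 and 58.5 FPKM in WT libraries, so it was higher and not lower, and every direction below follows the labels as given. All 11 listed DN3 genes were above 1 FPKM. Of these, Il2ra measured 569 and 492 FPKM in Gata3(g/g), against 277 and 261 FPKM in WT. Its log2 fold change, Gata3(g/g) over WT, was 0.98. It passed by edgeR with the sequencing run as a replicate block (adjusted p = 0.00262) and not without the block (adjusted p = 0.809). The other listed DN3 genes did not pass. The runs differed in immediate-early genes (summed FPKM of 10 genes 491 in Gata3(g/g) and 695 in WT in run 1, 61.9 and 50.5 in run 2) and in erythroid genes (8 genes, 2.34 and 1.36 in run 1, 593 and 464 in run 2). Within runs, the immediate-early genes Nr4a1, Junb, Egr1 and Fosb were lower in Gata3(g/g) and Jun higher (adjusted p under 0.05 by edgeR with the block). None of them passed by edgeR without the block, and Jun did not pass by DESeq2 with it (adjusted p = 0.601). The other immediate-early genes did not pass or were not tested.

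Rab38 lies on chromosome 7 (chr7:88430273-88491572, plus strand), Rab32 on chromosome 10 (chr10:10545039-10558207, minus strand) and Rab5b on chromosome 10 (chr10:128677170-128696284, minus strand) in mm10, with coordinates of the RefSeq table for GRCm38. The coding sequence around the GTP-binding loop, which holds the phosphates of GTP, shows how alike the transcripts are that the results below must keep apart. Each line gives 90 bases of the longest GENCODE M21 coding sequence, 5′ to 3′, with the 24 bases that encode the loop in capitals.
Rab38: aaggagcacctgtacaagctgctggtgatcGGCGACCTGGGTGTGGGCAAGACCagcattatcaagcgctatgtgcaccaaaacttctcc
Rab32: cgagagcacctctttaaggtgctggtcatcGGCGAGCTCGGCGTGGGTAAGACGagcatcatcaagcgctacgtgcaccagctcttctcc
Rab5a: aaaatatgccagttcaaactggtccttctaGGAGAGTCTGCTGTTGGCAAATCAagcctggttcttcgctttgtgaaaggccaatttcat
Rab5b: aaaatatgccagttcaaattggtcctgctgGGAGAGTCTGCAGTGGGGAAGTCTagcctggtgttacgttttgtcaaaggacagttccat
Rab5c: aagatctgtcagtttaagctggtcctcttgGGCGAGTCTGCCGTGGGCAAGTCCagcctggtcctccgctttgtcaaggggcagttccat

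Rab38 and Rab32 had the same base at 72 of these 90 positions, and at 64.2% of the aligned positions of their whole coding sequences. Their longest run of identical bases was 14. Rab5a and Rab5b were identical at 74 of the 90 positions and over 74.4% of the aligned coding positions, with a longest identical run of 35 bases. With retained-intron transcripts of Rab38 and Rab32 left out, no 50-base stretch of either gene occurs in a transcript of another gene. The opposite strand was not searched for such stretches. None of their exonic bases overlap an exon of another gene, with retained-intron transcripts of all genes left out. For Rab5b, 13.0% of the 50-base stretches also occur in Gm13991, so part of its fragments could have come from that locus.

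Among the 37 Rab genes tested (mean of at least 1 FPKM), Rab38 differed most between the genotypes. It stood at 1.22 and 0.665 FPKM under the Gata3(g/g) label (0.943 ± 0.392, SD, n = 2), from 91 and 33 fragments, against 5.31 and 8.07 FPKM in WT libraries (6.69 ± 1.95, SD, n = 2), from 297 and 311 fragments. Both libraries labelled Gata3(g/g) lay below both WT libraries. Its log2 fold change, Gata3(g/g) over WT, was −2.77 ± 0.319 (SE), so the WT level was 6.84 times the Gata3(g/g) level (adjusted p = 2.91e-05 by edgeR with the sequencing run as a replicate block). The difference in log2 CPM (counts scaled to library size) was −2.07 in run 1 and −3.54 in run 2. Leaving the block out gave −2.81 and ended the call (adjusted p = 0.413), and by limma on log2(FPKM + 1) with the block it was −1.98 and did not pass (adjusted p = 0.103). By DESeq2 the gene passed with the block and without it (adjusted p = 6.78e-06 without). In the authors' deposited table its log2 fold change was −2.83 with a q-value of 0.00138. Rab38 entered the test through its WT level, since its mean in the libraries labelled Gata3(g/g) was under the 1 FPKM asked of the mean over all 4 libraries. In RNA from a mixed sample, fewer cells of a type and less RNA per cell cannot be told apart.

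Rab32, which shares cargo routes with Rab38, had the lowest mean level of the tested Rab genes and did not pass. Its levels were 1.77 and 1.88 FPKM in libraries with the Gata3(g/g) label, against 2.18 and 2.67 FPKM in WT libraries. The groups did not overlap, and the log2 difference was −0.40 ± 0.259 (SE; edgeR adjusted p = 0.415). Of the summed FPKM of the pair, Rab38 made up 40.9% and 26.2% in the libraries labelled Gata3(g/g), against 70.9% and 75.1% in WT libraries. Rab38 was thus the more abundant paralog in both WT libraries and the less abundant one in both libraries labelled Gata3(g/g).

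**Figure D1:**
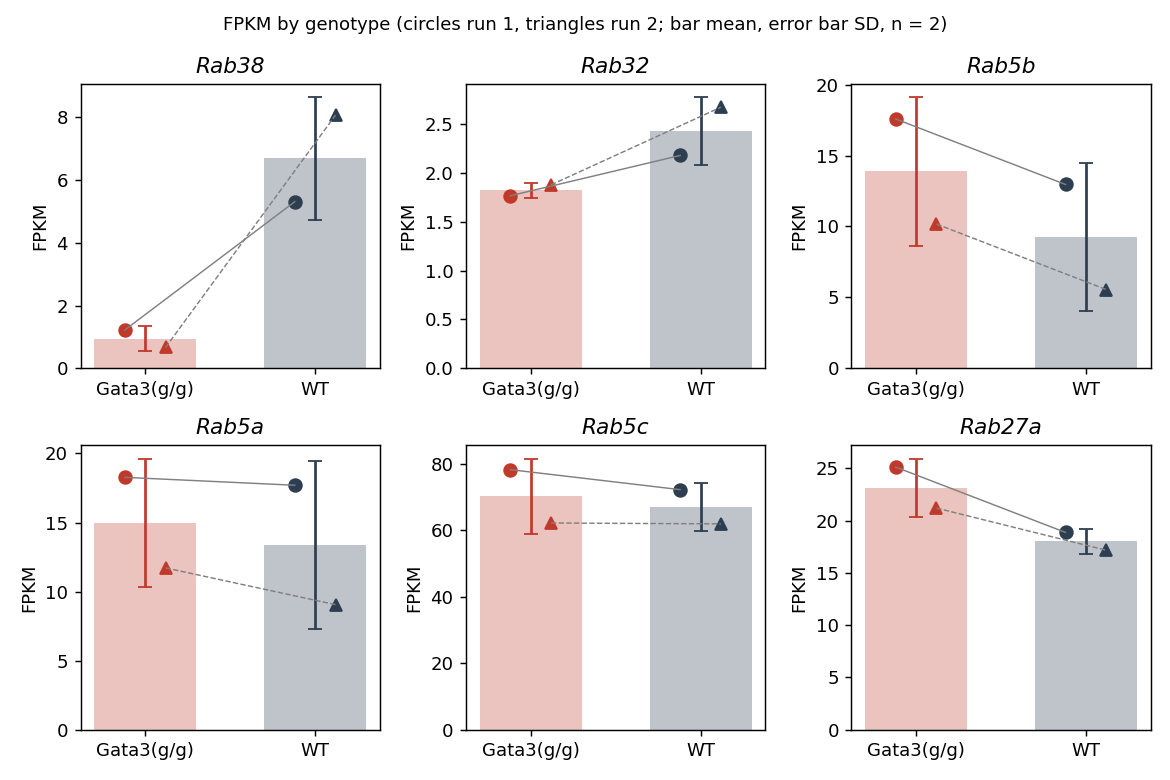
FPKM of 6 Rab genes in Gata3(g/g) (left of each panel) and WT libraries. Circles are run 1, triangles run 2, bars the mean and error bars the SD (n = 2), and lines join libraries of the same run. Rab38 stood at 1.22 and 0.665 FPKM in Gata3(g/g) libraries, below both WT libraries, and Rab5b was higher in Gata3(g/g) within each run although the genotypes overlap.

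Genes that serve Rab38 and Rab32 were compared as a list: subunits of BLOC-3, their exchange factor, of BLOC-1, BLOC-2 and the adaptor complex AP-3, which act on the same cargo route, and their effector VARP with other partners. Of 21 tested genes, 0 were higher, 1 was lower and 20 did not pass by edgeR with the block (median log2 fold change 0.03, against 0.01 over all 10224 tested genes). Of all tested genes, 3.9% were called higher and 2.99% lower. The gene that fell was Ankrd27, which encodes VARP, an effector of Rab32 and Rab38 and an exchange factor for Rab21. Ankrd27 measured 9.16 and 7.89 FPKM in libraries with the Gata3(g/g) label, against 15.0 and 13.5 FPKM in WT libraries. Its log2 fold change was −0.73 ± 0.131 (SE, adjusted p = 0.00193 with the block, 0.891 without). The difference was −0.68 in run 1 and −0.79 in run 2, in log2 CPM. Hps4, a BLOC-3 subunit, measured 4.99 and 4.87 FPKM in Gata3(g/g), against 6.18 and 6.30 FPKM in WT (log2 fold change −0.34 ± 0.151, SE; edgeR adjusted p = 0.214). The partner subunit Hps1 measured 4.17 and 3.31 FPKM in Gata3(g/g), against 4.21 and 3.56 FPKM in WT (log2 fold change −0.05).

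**Figure D2:**
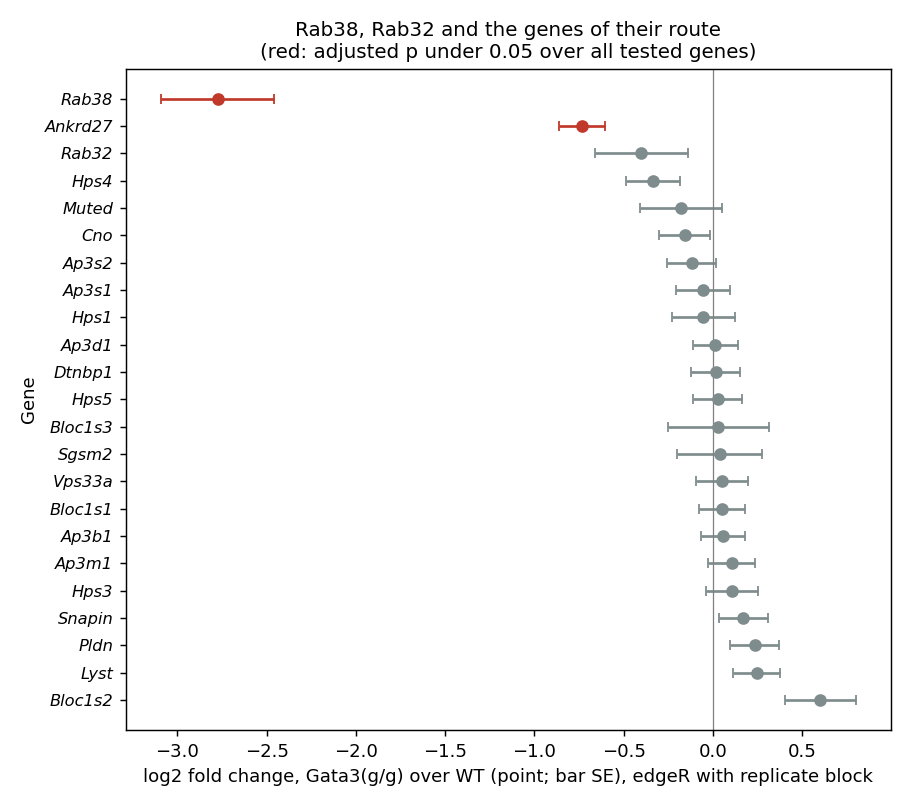
Log2 fold change, Gata3(g/g) over WT, of Rab38, Rab32 and the 21 tested genes of their route (points, with the SE as bars, from edgeR with the replicate block). Rab38 (−2.77) and Ankrd27 (−0.73) passed an adjusted p of 0.05 over all tested genes, and the others did not.

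Rab5b, which encodes 1 of 3 Rab5 proteins of the early endosome, was higher in the libraries labelled Gata3(g/g) within each run. It measured 17.6 and 10.2 FPKM in libraries with the Gata3(g/g) label (13.9 ± 5.24, SD, n = 2), against 13.0 and 5.55 FPKM in WT libraries (9.26 ± 5.24, SD, n = 2). The genotypes overlapped, since run 2 was lower than run 1 in both. The log2 fold change was 0.65 ± 0.145 (SE), or 1.57-fold (adjusted p = 0.0111 by edgeR with the block), with a difference in log2 CPM of 0.46 in run 1 and 0.86 in run 2. The call was lost when the block was left out (adjusted p = 0.9997), and by limma on log2(FPKM + 1) with the block (adjusted p = 0.221). Leaving out 1 library, which also leaves out the block, moved the log2 fold change to between 0.12 (without WT replicate 2) and 1.29 (without WT replicate 1). In the authors' deposited table its q-value was 0.0487. Its run difference, run 2 minus run 1, was −0.78 in Gata3(g/g) and −1.19 in WT, which exceeded the genotype difference.

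The other Rab5 genes did not pass. Rab5c, the most abundant Rab gene in the table, measured 78.2 and 62.1 FPKM in Gata3(g/g), against 72.2 and 61.9 FPKM in WT (log2 fold change 0.06 ± 0.121, SE). Rab5a measured 18.3 and 11.7 FPKM in Gata3(g/g), against 17.7 and 9.05 FPKM in WT (0.21 ± 0.141, SE). Rab5b supplied 15.4% and 12.1% of the summed Rab5 FPKM in Gata3(g/g), against 12.6% and 7.26% in WT, and Rab5c between 68.6% and 80.9% in every library. The change in Rab5b thus concerned the least abundant Rab5 transcript in each library.

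Across the family, 1 Rab gene was higher and 1 lower among the 37 tested, and 35 did not pass, by edgeR with the block. Over all tested genes, 3.9% were called higher and 2.99% lower (6.9% either way), so the share of Rab genes called was close to that background. Without the block edgeR called 0 Rab genes and 0 of all genes (0.0%). In that fit 1 of the 37 Rab genes had an unadjusted p under 0.05, as did 393 of all 10224 tested genes. DESeq2 without the block called Rab38. Among the 35 that did not pass, log2 fold changes ran from −0.40 to 0.41 with SEs of 0.121 to 0.274 and adjusted p-values of 0.0997 to 0.968. A single tested Rab gene differed by more than 2-fold, Rab38, where 2.97% of all tested genes did.

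Small positive differences prevailed among the tested Rab genes. The fold change was above 0 for 27 of 37 (73.0%), against 51.3% of all tested genes, and the median log2 fold change was 0.12, against 0.01. In both runs, Gata3(g/g) stood above WT for 20 and below WT for 9, where 33.3% and 31.3% of all tested genes were (29 with the same sign, 64.6% of all genes). For 12 of the 37, FPKM values of the genotypes were fully separate, where 29.0% of all tested genes were. In Gata3(g/g), 6 of these Rab genes were high and 6 low, where 14.2% and 14.8% of all genes were. With no filter on low values, the median over all 57 was 0.07, against 0.05 over 21355 genes. These counts describe the 37 that passed the filter and not all Rab genes.

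**Figure D3:**
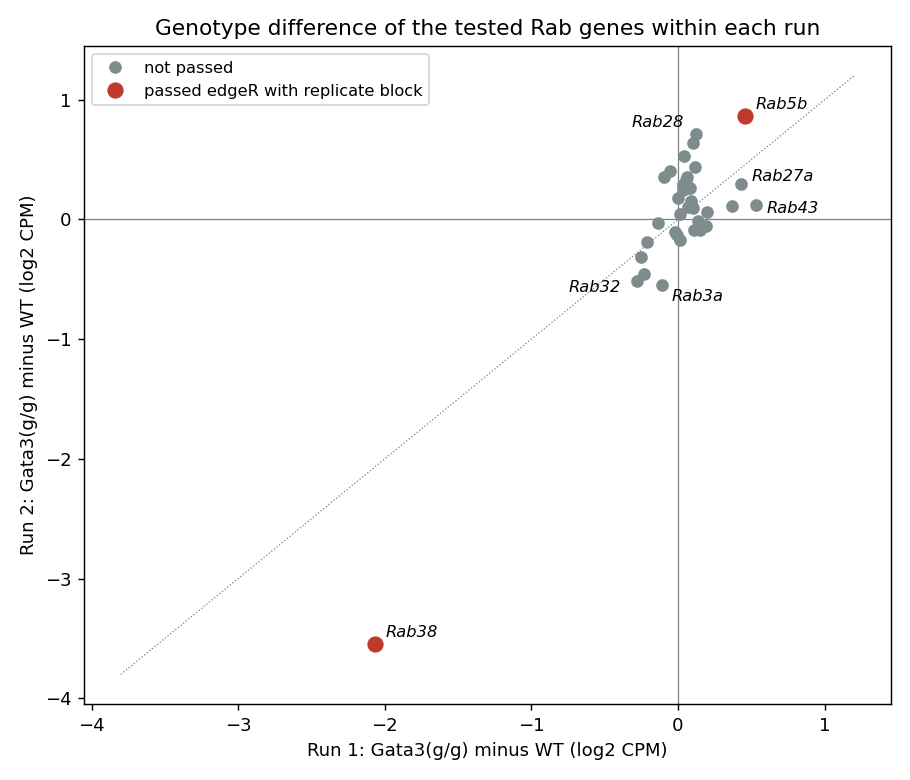
Difference in log2 CPM, Gata3(g/g) minus WT, in run 1 (horizontal axis) and run 2 (vertical axis) for the 37 tested Rab genes. Rab38 stands alone at −2.07 and −3.54, Rab5b (0.46 and 0.86) is the other gene that passed, and the dotted line marks equal differences.

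Rab genes of regulated secretion and lysosome-related organelles numbered 11, of which 7 were tested, 1 was lower and 6 did not pass. Of all tested genes, 6.9% were called either way by edgeR with the block. Rab27a, the Rab of cytotoxic granule release, measured 25.1 and 21.2 FPKM in Gata3(g/g), against 18.9 and 17.2 FPKM in WT. Both libraries labelled Gata3(g/g) were above both WT libraries, with a log2 difference of 0.36 ± 0.127 (SE; edgeR adjusted p = 0.0997). Rab27a made up at least 99.2% of the Rab27 FPKM in each library, and Rab27b measured 0.140 and 0.0547 FPKM in Gata3(g/g), against 0.0867 and 0.142 FPKM in WT, too low to be tested. Rab44, a large Rab with a calcium-binding region, measured 13.8 and 14.1 FPKM in Gata3(g/g), against 16.6 and 17.4 FPKM in WT (−0.28 ± 0.124, SE; edgeR adjusted p = 0.203). Rab37, known from mast cell granules, measured 2.64 and 2.17 FPKM in Gata3(g/g), against 2.62 and 1.82 FPKM in WT, and its groups overlapped. Rab3a, which acts in synaptic vesicle release, averaged 3.19 ± 0.353 FPKM in Gata3(g/g) and 4.01 ± 0.358 FPKM in WT (SD, n = 2 each), and its relative Rab3d 2.30 ± 0.253 and 2.11 ± 0.261 FPKM. The remaining members Rab3b, Rab3c and Rab26 were at most 0.404 FPKM in any library.

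Of 9 tested Rab27 effectors and granule exocytosis genes, 0 were higher, 1 was lower and 8 did not pass, where 6.9% of all tested genes were called either way. Sytl2, whose product ties Rab27 to the plasma membrane, measured 2.36 and 3.05 FPKM in libraries with the Gata3(g/g) label, against 4.12 and 6.99 FPKM in WT libraries (log2 fold change −1.06 ± 0.166, SE, adjusted p = 0.00062 with the block, 0.9997 without). Within runs it was −0.84 and −1.27 in log2 CPM.

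Markers of cells that use these organelles were read in the same libraries. Of 10 mast cell and basophil markers, 2 exceeded 1 FPKM in any library, Cpa3 and Kit, and Fcer1a and Mcpt4 were at 0 in all 4. Their summed level was 8.33 and 8.86 FPKM in Gata3(g/g), against 48.7 and 55.9 FPKM in WT, mostly Kit in Gata3(g/g) and Cpa3 in WT. Of 9 NK and cytotoxic markers, 2 exceeded 1 FPKM, and the sum was 195 and 173 FPKM in Gata3(g/g), against 528 and 505 FPKM in WT. Gzma measured 98.3 and 96.1 FPKM in Gata3(g/g), against 485 and 463 FPKM in WT, and Nkg7 96.4 and 75.5 FPKM, against 43.4 and 41.1 FPKM, while Klrb1c, Ncr1 and Eomes were under 0.1 FPKM in every library. Both sums were lower in Gata3(g/g), as Rab38 was, through Cpa3 and Gzma. Kit and Nkg7, the other markers above 1 FPKM in these lists, had log2 fold changes of 0.20 and 1.02. By edgeR with the block, Cpa3, Gzma and Nkg7 passed and Kit did not, and without the block none of them passed. The part of either sum in the difference of Rab38 was not tested. Of 8 pigment cell markers, 0 exceeded 1 FPKM and Mlana was at 0 in every library, and the 9 platelet markers summed to between 0.833 and 1.98 FPKM. Of 11 myeloid markers 3 exceeded 1 FPKM, Lyz2, Cd68 and Ly6c2. The 11 summed to 23.3 and 19.1 FPKM in Gata3(g/g), against 13.6 and 11.02 FPKM in WT. Lyz2 made up most of the sum in Gata3(g/g) and averaged 16.1 FPKM there, against 7.06 FPKM in WT. It passed by edgeR with the block (adjusted p = 0.00061) and not without it. Cd68 went the other way, with means of 3.11 FPKM in Gata3(g/g) and 4.49 FPKM in WT, and its groups overlapped. Ly6c2 averaged 0.94 FPKM in Gata3(g/g) and 0.14 FPKM in WT.

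Rab genes of the secretory route carry cargo between the endoplasmic reticulum, the Golgi apparatus and the surface. They numbered 16, with 12 tested and 0 passing, where 6.9% of all tested genes were called either way. Rab8a, which acts in transport to the plasma membrane, measured 67.0 and 55.0 FPKM in Gata3(g/g), against 74.8 and 55.6 FPKM in WT (log2 fold change −0.08 ± 0.122, SE). Rab1b, of the step from endoplasmic reticulum to Golgi, measured 47.4 and 30.3 FPKM in Gata3(g/g), against 49.9 and 22.6 FPKM in WT, and its paralog Rab1 measured 29.5 and 25.7 FPKM in Gata3(g/g), against 28.8 and 20.4 FPKM in WT. For both, run 2 was lower than run 1 in each genotype and the genotypes overlapped. Rab2a, of the Golgi and early secretory membranes, measured 31.3 and 36.3 FPKM in Gata3(g/g), against 31.4 and 34.8 FPKM in WT. Rab10, of exocytic transport, measured 33.4 and 28.4 FPKM in Gata3(g/g), against 32.0 and 23.5 FPKM in WT. Rab18, of the endoplasmic reticulum and lipid droplets, had the largest difference of this role, with 31.0 and 26.4 FPKM in Gata3(g/g), against 29.2 and 16.8 FPKM in WT. It differed by 0.37 ± 0.144 on the log2 scale (SE; edgeR adjusted p = 0.148), where run 1 gave 0.10 and run 2 gave 0.64, so WT replicate 2 stood apart from the other 3 libraries. Rab6a, Rab6b, Rab33b, Rab43, Rab2b and Rab8b also did not pass. Fold changes of the role ran from −0.20 to 0.37 (median 0.15, log2).

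Rab genes of early and recycling endosomes numbered 16, with 11 tested. Of these, Rab5b passed, where 6.9% of all tested genes were called either way. Rab35, which returns cargo to the surface, measured 37.4 and 27.4 FPKM in Gata3(g/g), against 37.5 and 30.7 FPKM in WT. Rab4b, of fast recycling, measured 28.4 and 28.4 FPKM in Gata3(g/g), against 29.0 and 30.7 FPKM in WT, but 62.1% of its 50-base stretches also occur in other transcripts, chiefly the readthrough gene Gm21983. Rab11a and Rab11b, of slow recycling, had log2 fold changes of 0.16 and 0.01, and Rab11a supplied between 65.2% and 70.8% of their summed FPKM with Rab25. The other tested members, Rab4a, Rab14, Rab21 and Rab22a, had log2 fold changes from −0.34 to 0.16, and none passed.

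Late endosome, lysosome and autophagy Rabs numbered 10, with 5 tested and 0 passing, where 6.9% of all tested genes were called either way. Rab7, the main Rab of late endosomes, measured 30.8 and 24.9 FPKM in Gata3(g/g), against 29.9 and 20.3 FPKM in WT (log2 fold change 0.17 ± 0.163, SE). Rab24, linked to autophagy, measured 30.7 and 24.2 FPKM in Gata3(g/g), against 31.5 and 25.7 FPKM in WT. Its value is uncertain, since 64.9% of its exonic bases overlap Prelid1 on the other strand and no source used here says whether counting used the strand. Rab9, of transport from late endosomes to the Golgi, measured 18.7 and 18.2 FPKM in Gata3(g/g), against 14.7 and 16.6 FPKM in WT, and did not pass (adjusted p = 0.355 by edgeR with the block). Of the 4 cilium and atypical Rabs, 2 were tested and 0 passed, against the same 6.9% of all tested genes. Rab28, found at the base of cilia, measured 2.68 and 3.15 FPKM in Gata3(g/g), against 2.49 and 1.89 FPKM in WT. Its log2 fold change was 0.41 ± 0.274 (SE, edgeR adjusted p = 0.432). Exon overlap also touches Rab2b (75.3% of its exonic bases, with Tox4 and Gm43766) and Rab43 (75.4%, with Gm45140).

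Summed over the family, the 57 genes took 0.307% and 0.274% of fragments in Gata3(g/g), against 0.286% and 0.248% in WT, and run 2 was lower than run 1 in both. In all libraries, Rab5c and Rab8a led, 23 genes averaged at least 10 FPKM and 14 at least 20 FPKM over the 4 libraries. The 20 Rab genes that were not tested averaged between 0.0244 and 0.943 FPKM, and 4 of them had 0 fragments in at least 1 library. Among the untested, Rab19 (0.900 and 0.642 FPKM in Gata3(g/g), against 1.31 and 0.920 FPKM in WT) and Rab33a (0.537 and 0.959 FPKM in Gata3(g/g), against 0.905 and 0.728 FPKM in WT) were nearest to the filter.

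**Figure D4:**
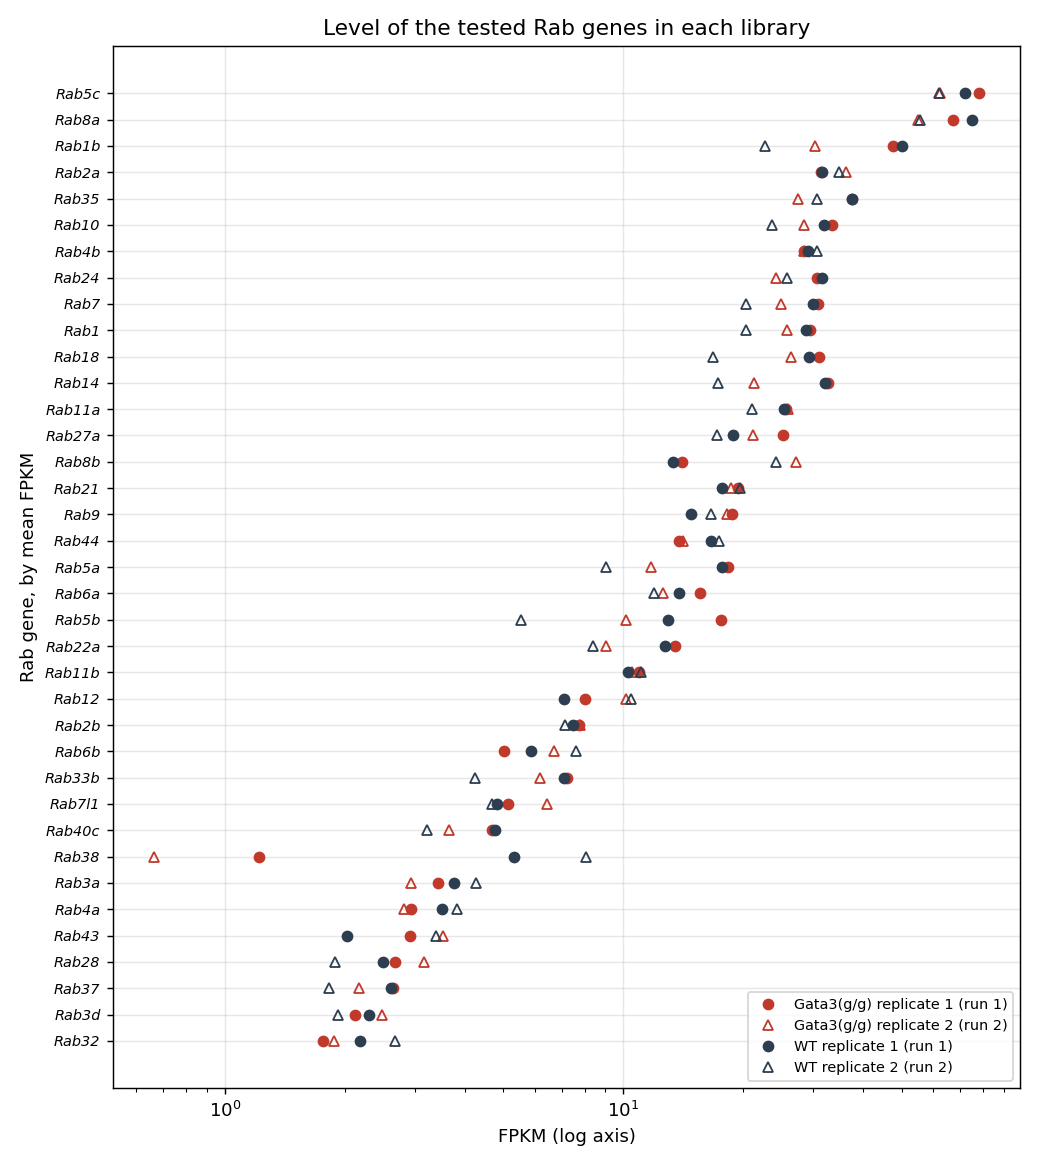
FPKM of the 37 tested Rab genes in each library on a log axis, ordered by their mean over the 4 libraries. By mean, Rab5c (up to 78.2 FPKM) is at the top and Rab32 (1.77 to 2.67 FPKM) at the bottom. The lowest single value is that of Rab38 in Gata3(g/g) replicate 2 (0.665 FPKM), and Rab38 is the gene whose Gata3(g/g) libraries lie farthest from the WT libraries.

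For 24 of the 37 tested Rab genes, the run difference averaged over the genotypes exceeded the genotype difference in size. Run 2 was lower than run 1 in both genotypes for 18 Rab genes (48.6%, against 40.0% of all tested genes) and higher for 7. The counts of 24 and 7 were not taken over all tested genes, so they have no background share here. Rab8b, a close relative of Rab8a, measured 14.0 and 27.1 FPKM in Gata3(g/g), against 13.4 and 24.2 FPKM in WT, so it was higher in run 2 in each genotype. Its share of the summed Rab8 FPKM was 17.3% and 33.0% in Gata3(g/g), against 15.2% and 30.3% in WT. Rab38 had run differences of opposite sign, −0.85 in Gata3(g/g) and 0.63 in WT.

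**Figure D5:**
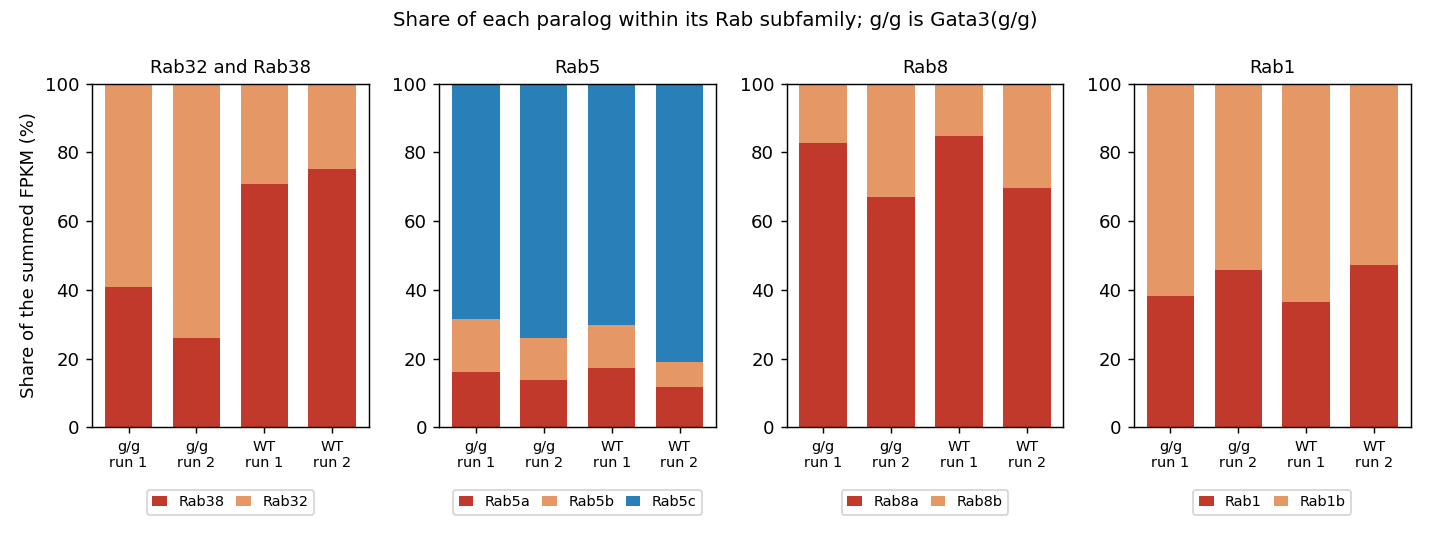
Share of each paralog in the summed FPKM of 4 Rab subfamilies, by library, with Gata3(g/g) at the left. The split between Rab38 and Rab32 separates the genotypes (26.2% to 40.9% Rab38 in Gata3(g/g), 70.9% to 75.1% in WT), whereas the split between Rab8a and Rab8b separates the runs.

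Genes that load and switch Rab proteins were read as lists, against 6.9% of all tested genes called either way. Genes for Rab prenylation and membrane extraction, including the Rab geranylgeranyl transferase, its escort proteins and the GDP dissociation inhibitors, had 0 of 11 tested genes passing by edgeR with the block (median log2 fold change −0.01). Of 33 tested GEF genes, 1 was higher and 2 were lower. Dennd5a, an exchange factor for Rab39, measured 4.18 and 4.31 FPKM in libraries with the Gata3(g/g) label, against 1.87 and 2.42 FPKM in WT libraries (log2 fold change 1.005 ± 0.158, SE; edgeR adjusted p = 0.00062). Ankrd27, described above, was among those that fell. Of 30 tested GAP genes, Evi5, which acts on Rab11, was higher with the block (0.66 ± 0.170, SE; edgeR adjusted p = 0.0264) and 29 did not pass. Evi5 measured 1.76 and 2.86 FPKM in Gata3(g/g), against 1.14 and 1.78 FPKM in WT, so the genotypes overlapped. It did not pass by DESeq2 with the block (adjusted p = 0.157) or by edgeR without it (adjusted p = 0.9997).

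Of 38 tested Rab effectors and tethers, 4 were higher, 1 lower and 33 did not pass (median log2 fold change 0.12), where 3.9% of all tested genes were called higher and 2.99% lower. Appl2, an effector of Rab5 on signalling endosomes, measured 5.27 and 4.57 FPKM in libraries with the Gata3(g/g) label, against 1.18 and 1.21 FPKM in WT libraries, 2.05 ± 0.201 higher on the log2 scale (SE; adjusted p = 5.43e-06 with the block, 0.275 without). Both Gata3(g/g) libraries were above both WT libraries. Its relative Appl1 rose less (0.51 ± 0.124, SE), as did the Rab7 effector gene Osbpl1a (1.09 ± 0.148, SE) and the Rab11 effector gene Wdr44 (0.62 ± 0.166, SE). Rab11fip1, another Rab11 effector gene, measured 0.650 and 0.673 FPKM in Gata3(g/g), against 1.51 and 2.68 FPKM in WT, with a log2 fold change of −1.58 ± 0.211 (SE; edgeR adjusted p = 0.000136). Like Rab38, Rab11fip1 entered the test through its WT level. Over all 6 lists, 10 genes passed with the block and 0 without it by edgeR, 2 by DESeq2 without it.

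Promoter sequence was searched for 47 of the 57 Rab genes, in 59 windows of 300 bases from the RefSeq table (GRCm38.p6), and Rab38 is among the 10 that were not searched. Both strands were searched for the letters AGATAA or, with another ending, AGATAG, and for both with T in place of the first A, forms of the site that GATA factors bind. Such letters were in 14 of the 59 Rab windows (23.7%), against 29.8% of all 32851 windows. The windows of Rab5b, the gene that rose, and of Rab32, the relative of Rab38, each held 1 match, shown in capitals in the 250 bases before the start, 5′ to 3′ on the strand of the gene (minus).
Rab5b (chr10:128696269-128696518): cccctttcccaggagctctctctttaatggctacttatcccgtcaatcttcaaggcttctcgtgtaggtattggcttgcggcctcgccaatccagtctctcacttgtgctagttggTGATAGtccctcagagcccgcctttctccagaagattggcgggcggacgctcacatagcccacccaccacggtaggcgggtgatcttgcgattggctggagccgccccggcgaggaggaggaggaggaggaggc
Rab32 (chr10:10558208-10558457): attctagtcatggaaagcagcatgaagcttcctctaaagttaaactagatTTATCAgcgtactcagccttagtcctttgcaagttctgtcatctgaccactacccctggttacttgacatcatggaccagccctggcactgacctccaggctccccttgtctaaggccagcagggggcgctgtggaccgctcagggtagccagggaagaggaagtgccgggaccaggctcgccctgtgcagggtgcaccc
The match in the Rab32 window is on the other strand. For Rab5b, the start used for the window lies inside the gene span given above, so the last bases shown fall within that span. A match is a description of these letters and not a site.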

How the data were processed

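RNA sequencing libraries of 2 samples labelled Gata3(g/g) and 2 labelled WT were used. TopHat2 (2.0.8b), Cuffdiff (2.1.1), Bowtie2 (2.1.0) and build mm10 are named in the submitters' processing notes. The annotation and the strand setting: not given in the sources used here. Per the file headers, the authors deposited an estimated count of fragments per gene and library before scaling and an FPKM value, and a comparison table with mean FPKM, log2 fold change, p-value and q-value per gene. Between 97.7% and 98.9% of the counts were whole within 0.01, and rounding was applied to every one. The 3 genes marked as too deep were left out.

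The 10224 genes whose FPKM averaged 1 or more were tested with edgeR 4.0.16 in R 4.3.3: quasi-likelihood F test, TMM scaling, two-sided, Benjamini-Hochberg adjustment at 0.05 over all tested genes. The model held the sequencing run as a replicate block and the genotype, with 1 residual degree of freedom, so small p-values lean on the spread pooled over genes. The labels give the run, which pairs the replicate numbers. Across genes, the run differences of the genotypes correlated (Pearson 0.754, Spearman 0.758), over genes and not samples. Fold changes are as edgeR gives them, the SE is the unshrunken log2 fold change over the square root of F, and log2 CPM used a prior count of 2. Alternatives used limma 3.58.1 and DESeq2 1.42.0. The steps were tested on simulated data. A total of 3 fragments corresponds to between 0.112 and 0.209 CPM, for counting error only.

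The Rab genes and lists were chosen with earlier results of these data known. Named genes were those that passed, Rab38 and Rab32, the 10 most abundant Rabs, the 5 with the largest fold changes, and Rab27a, Rab27b and Rab37, together with up to 6 called genes per list and Hps1, Hps4 and Ankrd27. Other genes were named after their values were seen. A called list gene that the rule would name is not reported here.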

Additional observations from a re-analysis of the deposited data

How the results depend on the processing

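With the replicate block, the counts of Rab genes called (1 higher, 1 lower) were the same under RLE factors, total-count scaling, DESeq2 and no filter. Without the block edgeR called 0 higher and 0 lower, of Rab genes and of all genes, and DESeq2 called 0 Rab genes higher and 1 lower (50 and 38 over all genes). Limma with the block called 0 and 0 Rab genes, with 9 and 7 of all genes at a pseudocount of 1 and 2 and 2 at 0.1. At a mean FPKM of at least 5, Rab38 was not tested, so 0 Rab genes were lower, with 214 and 134 of all genes called. DESeq2 with the block called 230 higher and 187 lower of all genes. With no scaling beyond total counts, 464 were higher and 210 lower, against 399 and 306. The list genes, an alternative added after the data were seen, gave 10 calls by edgeR with the block, and 8 by DESeq2 with it. They gave 13 calls with no filter and 3 at the higher filter. Without the block there were 0 by edgeR and 2 by DESeq2, and limma called 0 at either pseudocount.

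Rab38 had a log2 fold change of −2.81 by edgeR without the block, −1.98 by limma at pseudocount 1 and −2.73 at 0.1, none of which passed. The block cannot be fitted with 3 libraries, and leaving out 1 library without it gave −3.33 to −2.45, passing in none (adjusted p of at least 0.0580). Rab5b ran from 0.12 to 1.29, the lowest without WT replicate 2 and the highest without WT replicate 1. In the same fits Rab and list calls were 0 to 0, and over all genes 1 to 5 were higher and 0 to 6 lower. Directions turned for Rab5c (−0.11 to 0.23), Rab8a (−0.28 to 0.11), Rab1b (−0.34 to 0.75), Rab2a (−0.080 to 0.14), Rab35 (−0.31 to 0.14), Rab24 (−0.24 to 0.10), Rab7 (−0.092 to 0.44), Rab37 (−0.10 to 0.38), Rab10 (−0.028 to 0.37), Rab1 (−0.039 to 0.41) and Rab18 (−0.0090 to 0.74), none of which was called. Such fits leave the runs unequally shared between the genotypes. The cause of these shifts was not tested. Depth limits Rab38 in Gata3(g/g), with 33 to 91 fragments.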

Other observations

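The protein-coding genes within 500 kb of Rab38 that the table lists were Ctsc, which encodes the lysosomal protease cathepsin C, and the neuronal receptor gene Grm5. Ctsc, 114 kb away, measured 15.7 and 12.8 FPKM in Gata3(g/g), against 17.0 and 14.7 FPKM in WT (−0.15 ± 0.136, SE, on the log2 scale; edgeR adjusted p = 0.574), and Grm5 was at most 0.159 FPKM. The pigment cell gene Pmel, whose RefSeq span overlaps that of Rab5b, was at most 0.361 FPKM. Near Rab5b, the cell cycle kinase gene Cdk2, 1.65 kb away, measured 40.8 and 35.2 FPKM in Gata3(g/g), against 38.7 and 38.8 FPKM in WT (log2 fold change −0.03), and the sulfite oxidase gene Suox, 3.25 kb away, had a log2 fold change of 0.25 ± 0.250 (SE). The ribosomal protein gene Rpl41, 128 kb from Rab5b, was lower, at 1155 and 1519 FPKM in Gata3(g/g), against 1748 and 2145 FPKM in WT (−0.55 ± 0.160, SE, on the log2 scale; edgeR adjusted p = 0.0487), and without the block edgeR called 0 genes. These neighbours were chosen after their values were seen.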
